A study of Mus musculus with 4 samples.

Results

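The genes described here are the chromosomal neighbours of Adar, the gene that was made conditional in this study. They are the genes of the deposited table that start between 88.7 and 90.8 Mb on mouse chromosome 3 (build GRCm38) and hold at least 40 counts summed over the 4 libraries. Adar itself, Fdps, Pmvk, Trim46 and Rps27 were set aside by the same rule. This left 60 genes of the 126 in the window and of the 55401 in the table, and all 60 passed the filter on low counts that set the genes tested. The rule used position, total count and these 5 names, not the genotype of a library. It was written with earlier results of these data known. The study compared splenic B cells of C57BL/6 wild-type mice with those of mice labelled Adar1 cKO, a conditional knockout in B cells, with 2 libraries each. Anti-CD43 beads served to enrich the B cells, which were then activated in culture for 36 h. Antibodies to CD40 (1 µg/ml) and to IgM (10 µg/ml) stood in for T-cell help and antigen. The sources used here give neither the Cre driver nor the deleted part of Adar, and no age of the mice.

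Adar encodes ADAR1, an enzyme that converts adenosine to inosine in double-stranded RNA and so keeps the cell's own RNA from being taken for viral RNA. A conditional allele carries loxP sites inside the gene, and the DNA around it is inherited together with the allele. The comparison therefore asks whether genes next to the altered locus differ between the genotypes. With these libraries an effect of the allele or of the DNA around it cannot be told apart from one that also reaches genes elsewhere. The segment is gene-dense. It holds genes of protein glycosylation, mitochondria, chromatin and RNA processing that most cells use, beside receptor, ephrin and channel genes that few cells use, and it ends in the S100 cluster of small calcium-binding proteins, several of which are abundant in myeloid cells.

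Sequences from the start sites of 4 of these genes are shown because they hold the elements searched for, or belong to the gene with the largest difference. The RefSeq promoter table (GRCm38.p6, 250 bases before to 50 after a start) held 63 promoters for 47 of the gene symbols and none for 12. Capitals mark the matches, found on either strand, to the core of the interferon-stimulated response element (ISRE: GAAA, any 2 bases, GAAA), to the STAT-binding element GAS (TTCNNNGAA) or to the cell cycle element CHR (TTTGAA). The CHR was added to the search after the values were seen. All 4 sequences are written along the strand of the gene. They come from chr3:89418242-89418541, minus strand, for Cks1b, from chr3:89998667-89998966, minus strand, for Hax1, from chr3:88834981-88835280, plus strand, for Gon4l, and from chr3:90465817-90466116, minus strand, for Npr1, and no 2 matches in them overlap.
Cks1b: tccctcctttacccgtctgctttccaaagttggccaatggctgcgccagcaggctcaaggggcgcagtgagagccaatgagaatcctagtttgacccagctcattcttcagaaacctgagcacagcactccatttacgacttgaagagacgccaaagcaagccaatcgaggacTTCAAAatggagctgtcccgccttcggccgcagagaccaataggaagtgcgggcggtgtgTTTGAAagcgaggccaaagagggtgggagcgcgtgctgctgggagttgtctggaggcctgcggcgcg
Hax1: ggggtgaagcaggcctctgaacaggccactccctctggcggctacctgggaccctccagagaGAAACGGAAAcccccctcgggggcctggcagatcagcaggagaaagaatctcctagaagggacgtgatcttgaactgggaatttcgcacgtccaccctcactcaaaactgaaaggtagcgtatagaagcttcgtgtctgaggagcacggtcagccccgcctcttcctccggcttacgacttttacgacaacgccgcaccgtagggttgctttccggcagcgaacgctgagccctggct
Gon4l: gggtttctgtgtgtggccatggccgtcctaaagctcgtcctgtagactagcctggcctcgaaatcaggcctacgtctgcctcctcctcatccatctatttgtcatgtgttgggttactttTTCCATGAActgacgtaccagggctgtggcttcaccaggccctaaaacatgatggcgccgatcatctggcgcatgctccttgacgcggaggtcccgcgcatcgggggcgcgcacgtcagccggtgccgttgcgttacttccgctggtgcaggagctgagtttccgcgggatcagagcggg
Npr1: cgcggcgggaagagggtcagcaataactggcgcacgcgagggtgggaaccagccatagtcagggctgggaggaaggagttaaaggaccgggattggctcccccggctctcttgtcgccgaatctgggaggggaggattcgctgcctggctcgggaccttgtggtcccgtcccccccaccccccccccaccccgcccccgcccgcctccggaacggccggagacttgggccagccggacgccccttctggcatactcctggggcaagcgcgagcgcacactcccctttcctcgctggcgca
The ISRE core was found in 1 of the 63 promoters (1.59%), at the outer start of Hax1, against 3.44% of all 32851 promoters in the RefSeq table. The GAS letters were also found in 1 (Gon4l), against 8.30% of all promoters. The CHR letters were found in 10 of the 63 (15.9%), against 17.9% of all. Among the 14 promoters of the genes that changed, none held the ISRE core or the GAS letters and 2 held the CHR, those of Cks1b and Zbtb7b. These are matches of letters within short windows and say nothing of which factor binds there.

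Total counts were between 17327480 and 19669651 per library, so that 1 count was worth 0.0508 to 0.0580 CPM (the usual count share of a library, here on library sizes scaled by TMM). The 8 B-cell markers examined summed to 7425 and 7765 CPM in wild type and to 6809 and 7230 CPM in the cKO-labelled libraries. The summed level of macrophage and monocyte markers was 124 and 130.2 CPM in wild type against 48.2 and 56.3 CPM, carried by Adgre1, and that of dendritic cell markers was 57.0 and 58.3 CPM against 108 and 113 CPM. For dendritic cells, Cd209a and Clec10a were at 0 in all libraries, and 3 of 4 markers tested were higher. The 9 T-cell markers summed to 157 and 165 CPM against 129 and 138 CPM, almost all from Lck. The part of such cells in the results below was not tested, and in bulk libraries fewer cells of a type and less RNA per cell cannot be told apart. The labels do not say whether the libraries of a genotype came from separate mice, so the p-values measure the spread between these libraries, which may be technical.

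Adar lies at 89715022 to 89753446 (ENSMUSG00000027951) in the middle of the window. Its level was 137 and 149.8 CPM in wild type, and 218 and 232 CPM under the cKO label, without overlap. The gene-level difference was a rise of 0.65 ± 0.063 on the log2 scale (cKO-labelled minus wild type, ± SE, n = 2 libraries per genotype; 95% interval 0.52 to 0.78). This goes against the direction the label names. A count summed over the gene cannot show the loss of some exons. The second group is therefore named by its label, on which each direction below rests.

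Most neighbours of Adar, 48 of 60, were not called in the main analysis. Of the 60 genes, 4 rose and 8 fell with edgeR's quasi-likelihood test at a threshold of 0.05 on the Benjamini-Hochberg adjusted p, which makes 12 genes or 20.0%. Among all genes tested the same share was 21.7%, and it was 19.6% among the 627 other tested genes of chromosome 3. By direction, 6.67% of the neighbours rose, against a background of 12.2%, and 13.3% fell, against 9.54%. The other genes of chromosome 3 gave 12.1% and 7.5%. Of the 4 rises, 2 (Npr1 and S100a9) belong to genes that reached the minimum of 40 counts through the cKO-labelled libraries, and the rule therefore favoured a rise in them. Without both, 2 of 58 genes rose. An unadjusted p under 0.05 was found for 19 neighbours (31.7%), against 32.3% of all genes. The wild-type and cKO-labelled libraries did not overlap for 40 neighbours (15 higher, 25 lower), or 66.7%, where 57.9% of all genes tested had no overlap (29.2% higher, 28.7% lower). On the rest of chromosome 3 that share was 53.0% (28.2% higher, 24.7% lower).

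The differences were small. Their median was -0.07, against -0.0058 over all genes tested, and the middle 50% of the neighbours lay between -0.26 and 0.11. Of the 12 genes that changed, 9 did so by less than 1.5-fold. The 95% interval lay within 0.5 log2 units of zero for 35 of the 60 (58.3%), where 53.3% of all genes tested had an interval that narrow, and it excluded a 2-fold change in either direction for 49. For 49 neighbours the interval also ended below the lower bound of that of Adar, and 3 (Npr1, S100a9 and Rab13) had a difference larger than that of Adar. No share over all genes tested was computed for either count of 49. Rab13, a small GTPase of vesicle traffic, rested on wild-type counts of 11 and 8 against 11 and 18, and was not called.

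**Figure D1:**
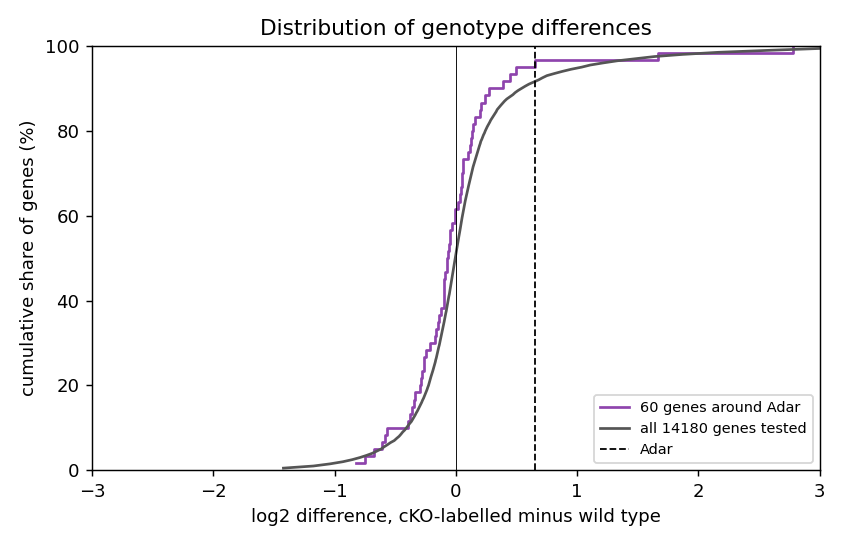
Cumulative share of genes (percent, vertical axis) by log2 difference, cKO-labelled minus wild type (horizontal axis), for the 60 neighbours of Adar (stepped line) and for all genes tested (smooth line); the dashed line is Adar. The neighbours' line lies slightly to the left of the other, with medians of -0.07 and -0.0058, and Adar at 0.65 lies to the right of all neighbours but the 3 named in the text.

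The genes closest to Adar showed no called change. Chrnb2, which encodes a subunit of the neuronal acetylcholine receptor, overlaps the end of Adar on the opposite strand. It stood at 8.58 and 10.6 CPM in wild type and 8.60 and 10.5 CPM in cKO-labelled libraries, so that the groups lay on top of each other. Its difference was -0.01 ± 0.175 (95% interval -0.37 to 0.35). The kit used does not mark strand, so reads from the shared stretch cannot be assigned to either gene. The long non-coding RNA 4632404H12Rik, 14.1 kb beyond Adar, stood at 11.01 and 12.04 CPM against 9.59 and 8.36 CPM. It was lower in both cKO-labelled libraries, at -0.36 ± 0.163, but did not pass (edgeR's adjusted p = 0.124). Ube2q1, an E2 ubiquitin-conjugating enzyme gene 20.2 kb away, stood at 124 and 126 CPM against 140.3 and 136 CPM. Here both cKO-labelled libraries were above both wild-type libraries, with a difference of 0.14 ± 0.0592 and an interval of 0.02 to 0.27 (edgeR's adjusted p = 0.0911).

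Farther out on the same side, Il6ra and Atp8b2 were the next protein-coding genes with enough counts. Il6ra, the ligand-binding chain of the interleukin-6 receptor, had 8.98 and 8.84 CPM in wild type and 10.6 and 9.96 CPM in cKO-labelled libraries. Its difference of 0.21 ± 0.164 was not called (interval -0.13 to 0.55). Elsewhere in the genome, the ligand gene Il6 rose by 0.54 and the kinase gene Jak2 by 0.64, while Socs3, a feedback inhibitor of that pathway, fell by 0.77 on the log2 scale. Atp8b2 (ENSMUSG00000060671, 89939481 to 89963508), a phospholipid flippase, was the called gene nearest to Adar, 186 kb away. It rose from 146 and 158 CPM in wild type to 175 CPM in both cKO-labelled libraries, by 0.20 ± 0.0605 (edgeR's adjusted p = 0.0187). Without wild-type library 1 its difference was 0.14 and the adjusted p 0.272, where the range over 10 alternative fits was 0.00361 to 0.272.

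On the other side the first 264 kb held none of the 60 genes, and the genes set aside by the rule were not looked at there. Kcnn3, a potassium channel gene in that stretch, had 1 count in all libraries together. The nearest 4 of the 60 genes beyond that stretch were Pbxip1, Pygo2, Shc1 and Cks1b. Pbxip1 had 116.6 and 117 CPM in wild type and 116.7 and 143 CPM in cKO-labelled libraries. The higher value came from cKO-labelled library 2 alone: without it the difference went from 0.15 to -0.00092, and without cKO-labelled library 1 it was 0.29 and passed. Pygo2, a chromatin-bound cofactor of Wnt signalling, had 72.2 and 74.0 CPM against 69.2 and 72.1 CPM, a difference of -0.05 with an interval of -0.19 to 0.09. Its sign turned to 0.07 once each library's trend with GC content was removed.

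Cks1b (ENSMUSG00000028044, 89415472 to 89418383, minus strand), which encodes a small subunit of cyclin-dependent kinase complexes needed to degrade p27, rose. It stood at 67.9 and 63.9 CPM in wild type and at 82.2 and 77.2 CPM in cKO-labelled libraries, without overlap. The rise was 0.27 ± 0.0673, or 1.21-fold (edgeR's adjusted p = 0.00433). Without wild-type library 2 it was 0.22, with an adjusted p of 0.0845, where the range over 10 alternative fits of edgeR or DESeq2 was 0.000724 to 0.0845. Shc1, an adaptor of receptor tyrosine kinases, starts 60 bases away on the plus strand and shares the start region printed above, in which both CHR matches lie. It stood at 73.3 and 74.7 CPM against 84.3 and 76.3 CPM, a difference of 0.12 ± 0.0671 that was not called (edgeR's adjusted p = 0.239) and reached 0.20 with removal of the GC trend (adjusted p = 0.0476). Over the alternatives its adjusted p lay between 0.0476 and 0.796.

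Cks1b and Shc1 were 1 of 7 pairs of neighbours that start head to head within 1 kb, with Ubap2l and the 2 overlapping entries of 4933434E20Rik taken as 1 pair. In 4 pairs both genes had a difference of the same sign and in 3 the signs were opposite. In no pair were both called. Dap3, a mitochondrial ribosomal protein gene, and Ash1l overlap by 559 bases at their starts, with differences of -0.14 and -0.26. The pair nearest to Adar, 4632404H12Rik and Ube2q1, had opposite signs.

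The genes that fell lay mostly on one side. Of the 31 neighbours before Adar in chromosome order, 1 rose and 7 fell, with a median difference of -0.10. Of the 29 after it, 3 rose and 1 fell, with a median of 0.04. These are 3.23% and 22.6% before Adar and 10.3% and 3.45% after it. Among all genes tested 12.2% rose and 9.54% fell. By the gap to Adar, 1 of 8 genes within 250 kb was called, 5 of 22 between 250 and 500 kb, and 6 of 30 farther away. The share called among all genes tested was 21.7%. All 8 genes within 250 kb lie after Adar, so that gap and side cannot be told apart for them. Across the 60 genes the size of the difference did not follow the gap in rank (Spearman's rho -0.03, Pearson's r 0.17), a description over genes that share the same 4 libraries. Whether both sides differ was not tested. The genes before Adar were also richer in GC, with a median exonic GC content of 54.7% against 51.0% after it. Once the GC trend of each library was removed, 4 genes rose and 5 fell before Adar, and 4 rose and 0 fell after it. In that fit 58 of the 60 genes had a GC value, and 18.7% of all genes were called, of which 61.4% rose.

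Krtcap2 and Dpm3, both of protein glycosylation, fell. Krtcap2 (ENSMUSG00000042747, 89245966 to 89249906) encodes a subunit of the oligosaccharyltransferase that attaches glycans to asparagine. It stood at 61.8 and 52.4 CPM in wild type and at 44.3 and 45.5 CPM in cKO-labelled libraries. Both cKO-labelled values were below both wild-type values, and the change was -0.35 ± 0.0824 (edgeR's adjusted p = 0.00343). Dpm3 (ENSMUSG00000042737, 89259358 to 89267079) tethers dolichol-phosphate mannose synthase, which makes a mannose donor of the endoplasmic reticulum. It fell from 16.1 and 13.1 CPM to 10.1 and 9.56 CPM, by 0.57 ± 0.155 on the log2 scale, or 1.48-fold (edgeR's adjusted p = 0.00982). Wild-type library 1 was the highest for both genes. Without it the changes were -0.23 and -0.42 and neither passed (edgeR's adjusted p = 0.118 and 0.157, which were also the highest of their 10 alternatives, the lowest being 0.000127 and 0.00249). Trim46, which starts within Krtcap2 on the opposite strand, was set aside by the rule.

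Slc50a1 and Zbtb7b, the next called genes toward Adar, kept their call and direction in all 10 alternative fits. Slc50a1 (ENSMUSG00000027953, 89268246 to 89270570) encodes SWEET1, a sugar transporter. It stood at 56.2 and 58.5 CPM in wild type and fell to 46.1 and 44.5 CPM, by 0.34 ± 0.0743 (edgeR's adjusted p = 0.00156), with changes between -0.37 and -0.27 over the alternatives. Zbtb7b (ENSMUSG00000028042, 89377644 to 89394776) encodes ThPOK, a zinc finger repressor known for directing thymocytes to the CD4 lineage. It fell from 53.0 and 49.4 CPM to 36.9 and 40.7 CPM, by 0.40 ± 0.0823, or 1.32-fold (edgeR's adjusted p = 0.000892), with changes between -0.47 and -0.25 over the alternatives. The antisense RNA Gm15417 overlaps its start and had 41 and 47 counts in wild type against 35 and 18. Of the T-cell markers, Lck fell by 0.30 on the log2 scale. The 8 others summed to 3.48 and 2.84 CPM in wild type against 4.10 and 5.32 CPM, and none of the 3 tested was called. Their part in the value of Zbtb7b was not tested.

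From Krtcap2 to Flad1, over 166 kb, all 7 genes kept by the rule had a negative difference. Of these, 4 were called, where 9.54% of all genes tested fell. The stretch is not unbroken: Efna1, Efna3, Efna4, Dcst1 and Dcst2 lie in it with fewer than 40 counts each. Trim46, set aside by the rule, also starts in it. The stretch was picked out after its values were seen. A longer one of 8 genes kept by the rule, from the pseudogene 5830417I10Rik to Pklr over 372 kb, held 1 called gene. Adam15, a membrane metalloprotease gene within the first stretch, had 8.64 and 7.01 CPM in wild type and 5.88 and 6.81 CPM in cKO-labelled libraries, and was not called.

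Of the other genes that fell, Ash1l had the most counts on the same side. Ash1l (ENSMUSG00000028053, 88950622 to 89079375) encodes a histone H3 lysine methyltransferase. It stood at 128 and 147 CPM in wild type and at 113 and 116 CPM in cKO-labelled libraries, a change of -0.26 ± 0.0667 (edgeR's adjusted p = 0.00567). Without wild-type library 2, its highest, the change was -0.16 and did not pass (adjusted p = 0.179 by edgeR, the highest of its alternatives, whose lowest was 0.000105). Scamp3 (ENSMUSG00000028049, 89177473 to 89182765), a membrane protein of recycling vesicles, fell from 58.5 and 55.7 CPM to 51.0 and 47.6 CPM, by 0.21 ± 0.0744. Its adjusted p by edgeR was 0.0441, and it did not pass in 6 of 10 alternatives, which spanned 0.0241 to 0.406. Fam189b (ENSMUSG00000032657, 89183143 to 89189295), a membrane protein gene next to Scamp3, fell from 6.43 and 5.33 CPM to 3.94 and 3.03 CPM, by 0.75 ± 0.248 (edgeR's adjusted p = 0.0323). It did not pass in 4 of 10 alternatives, which spanned adjusted p-values of 0.0169 to 0.199 by edgeR or DESeq2. No library of one genotype overlapped the other for these 3 genes.

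After Adar, Dennd4b was the gene that fell. Dennd4b (ENSMUSG00000042404, 90265185 to 90280669), which encodes an exchange factor for Rab GTPases, stood at 271 and 272 CPM in wild type and at 214 and 243 CPM in cKO-labelled libraries. The change was -0.25 ± 0.0631 (edgeR's adjusted p = 0.00566). The low value lay in cKO-labelled library 1, without which the change was -0.16 (adjusted p = 0.134 by edgeR). With the GC trend removed it was -0.12 (adjusted p = 0.180 by edgeR), the highest of the 10 alternatives, whose lowest was 0.000358.

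**Figure D2:**
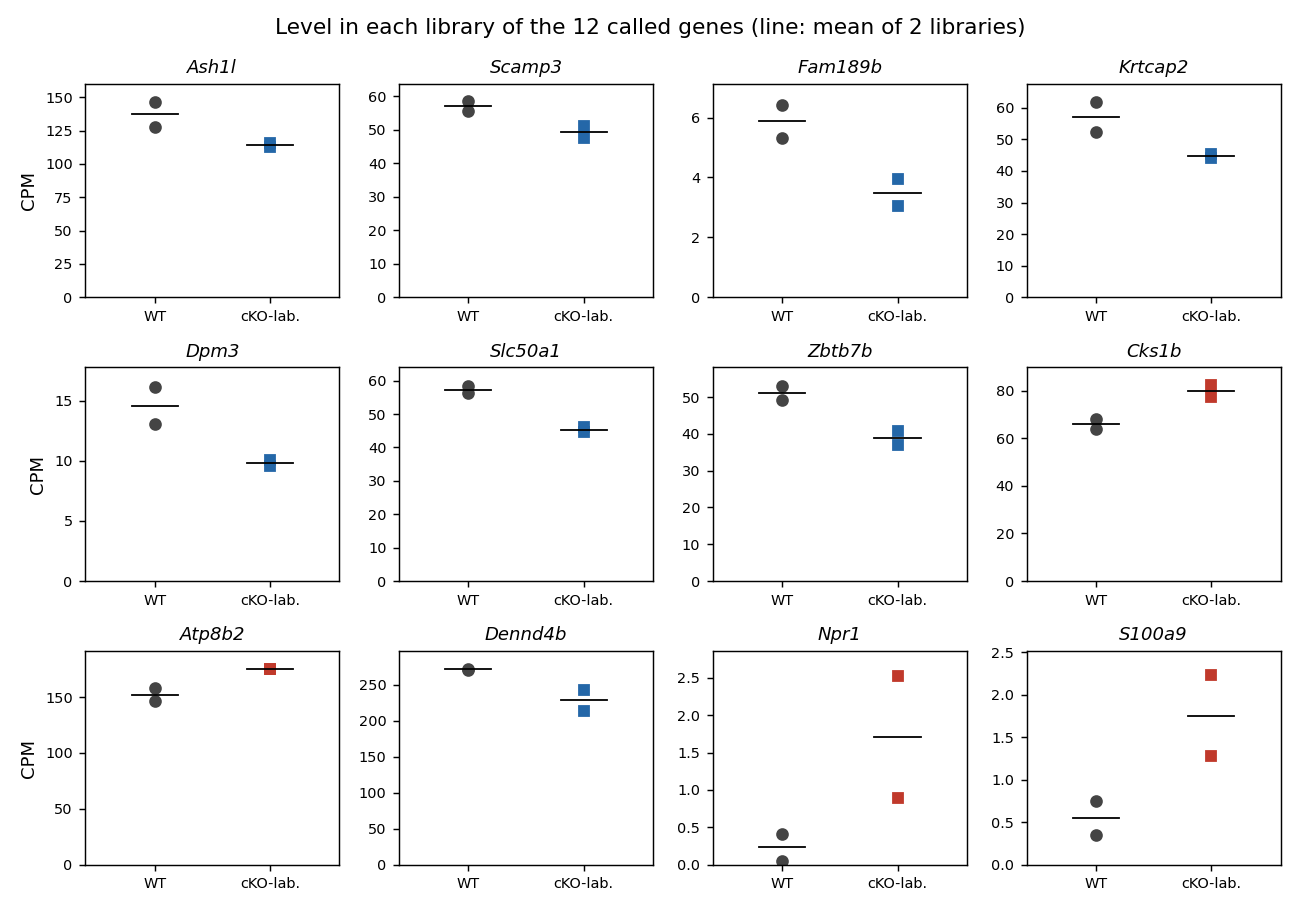
Level in CPM (vertical axes, starting at 0) of the 12 called neighbours in each library, ordered along the chromosome; circles are the 2 wild-type libraries, squares the 2 cKO-labelled libraries and lines their means. In every panel the genotypes do not overlap, and the cKO-labelled libraries of Npr1 lie apart, at 0.887 and 2.52 CPM.

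The rises of Npr1 and S100a9 rested on few counts, and both genes had fewer than 40 in wild type. Npr1 (ENSMUSG00000027931, 90450591 to 90465866), the guanylyl cyclase receptor of atrial natriuretic peptide, had 1 and 8 counts in wild type against 16 and 44 under the cKO label. These are 0.0580 and 0.406 CPM against 0.887 and 2.52 CPM, so both cKO-labelled values were higher, and cKO-labelled library 2 held most of the reads. The 5 markers of NK cells summed to 0.812 and 0.203 CPM in wild type against 1.94 and 4.69 CPM, also highest in that library, and Nkg7, the one tested, rose by 2.79 (9 and 2 counts against 20 and 55). The 5 erythroid markers summed to 0.869 and 1.47 CPM against 3.83 and 4.01 CPM, with 2 of 3 tested higher. The part of either cell type in the value of Npr1 was not tested. The fitted difference was 2.78 ± 0.68 (interval 1.37 to 4.19; edgeR's adjusted p = 0.00423). Without cKO-labelled library 2 it was 1.85 and did not pass (edgeR's adjusted p = 0.216, with 2.50e-05 the lowest over the alternatives). The transcript Gm16048 overlaps Npr1 on the opposite strand, and its reads cannot be told from those of Npr1.

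The S100 cluster, at the far end of the window, held few counts apart from S100a13. Of the 12 S100 genes looked for, 4 reached 40 counts and 1 of these rose. S100a13, which takes part in the export of signal proteins without a leader peptide, had 27.0 ± 0.0919 FPKM in wild type and 29.7 ± 1.15 FPKM in cKO-labelled libraries (mean ± SD, n = 2; deposited values, per length), with a difference of 0.13 that was not called. S100a1, 43 bases from it head to head, had 6.21 ± 0.502 and 6.04 ± 1.28 FPKM and a difference of -0.05 whose sign was not stable over the alternatives (-0.28 to 0.15). S100a6 had wild-type counts of 10 and 9 against 12 and 13, which leaves an interval from -0.77 to 1.66.

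S100a9 (ENSMUSG00000056071, 90692632 to 90695721), which with S100a8 forms calprotectin of neutrophils, had wild-type counts of 13 and 7 against 23 and 39. The rise was 1.67 ± 0.521 (interval 0.59 to 2.75; edgeR's adjusted p = 0.0236). It did not pass without wild-type library 2 (1.20, edgeR's adjusted p = 0.235), without cKO-labelled library 2 (1.21, edgeR's adjusted p = 0.284) or by DESeq2 (adjusted p = 0.0972), and over the alternatives the adjusted p ranged from 0.00617 to 0.284. S100a8, with 39 counts just under the minimum, had 5 and 4 against 13 and 17 counts, a difference of 1.76 (edgeR's adjusted p = 0.0609). The 10 other neutrophil markers examined had a summed count of 7 and 18 in wild type against 37 and 20, 1 of them passed the filter on low counts and was not called, and Ly6g was at 0 in all libraries. Their part in the values of S100a9 was not tested.

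Of S100 genes and their annexin partners on other parts of the genome, 10 of 13 were tested. In that list 3 rose, Anxa2 by 1.91, Anxa5 by 0.50 and Anxa4 by 0.47, and 1 fell, S100a11 at -0.41, against 12.2% of all genes tested that rose and 9.54% that fell. S100a10, the partner of annexin A2, had a difference of -0.09 and was not called.

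The remaining groups held few calls. None of the 5 mitochondrial genes (Dap3, Mtx1, Msto1, Hax1 and Flad1) was called, although all 5 differences were negative, from -0.17 to -0.03. Hax1, at -0.17, was called lower with the replicate number as a block and without cKO-labelled library 1. None of the 5 RNA-binding and processing genes was called either, with differences between -0.08 and 0.10. Among them Chtop, which takes part in mRNA export, was well expressed at 56.3 ± 0.148 FPKM in wild type and 60.6 ± 1.44 FPKM in cKO-labelled libraries, and its interval ran from -0.02 to 0.22. Of 7 genes of transcription and chromatin 0 rose and 2 fell (Ash1l and Zbtb7b). Of 9 genes of membrane traffic, lysosome and glycosylation 0 rose and 4 fell (Krtcap2, Dpm3, Scamp3 and Dennd4b), with a median of -0.21, where 12.2% of all genes tested rose and 9.54% fell. With the GC trend removed, Scamp3 and Dennd4b were not called (adjusted p = 0.406 and 0.180 by edgeR). Of 6 transporters and channels 1 rose and 1 fell, and of 5 receptors, ligands and adhesion molecules 1 rose. Of 4 genes listed under signalling 1 fell, the membrane protein gene Fam189b, while Shc1, Rit1 and Rusc1 were not called. Of 5 genes of cell division, ubiquitin transfer, cytoskeleton and glycolysis 1 rose. The 10 genes in no list, among them non-coding RNAs and a pseudogene, held no call.

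Tpm3, a tropomyosin gene, had the highest level of all the neighbours per length. It stood at 492 and 512 CPM in wild type and at 522 and 509 CPM in cKO-labelled libraries, with overlap between the genotypes. In FPKM its level was 82.4 ± 2.66 in wild type and 84.9 ± 1.49 in cKO-labelled libraries, and the log2 difference of 0.04 had an interval of -0.08 to 0.15. The mean level of a neighbour ranged from 0.175 to 83.6 FPKM, with a median of 8.53 FPKM against 5.91 FPKM for all genes tested.

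The split between rises and falls among the neighbours differed once GC content was accounted for. In the main analysis 4 rose and 8 fell. With the GC trend of each library removed, 8 rose and 5 fell, against 18.7% of all genes called by that fit. Among all genes called, 61.4% rose in that fit and 56.1% in the main analysis. Of the 12 genes called before, 9 were called again with the same sign, the 3 others being Scamp3, Fam189b and Dennd4b. The 4 additional genes, Hcn3, Shc1, Pbxip1 and Crtc2, were all higher. The neighbours had a median exonic GC content of 53.3%, against 49.8% of all genes tested, and the correction moved their median difference from -0.07 to -0.013. Without wild-type library 1, 7 of the 12 were called, and Scamp3, Fam189b, Krtcap2, Dpm3 and Atp8b2 no longer passed. The share of all genes called also went from 21.7% to 15.3% in that fit.

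**Figure D3:**
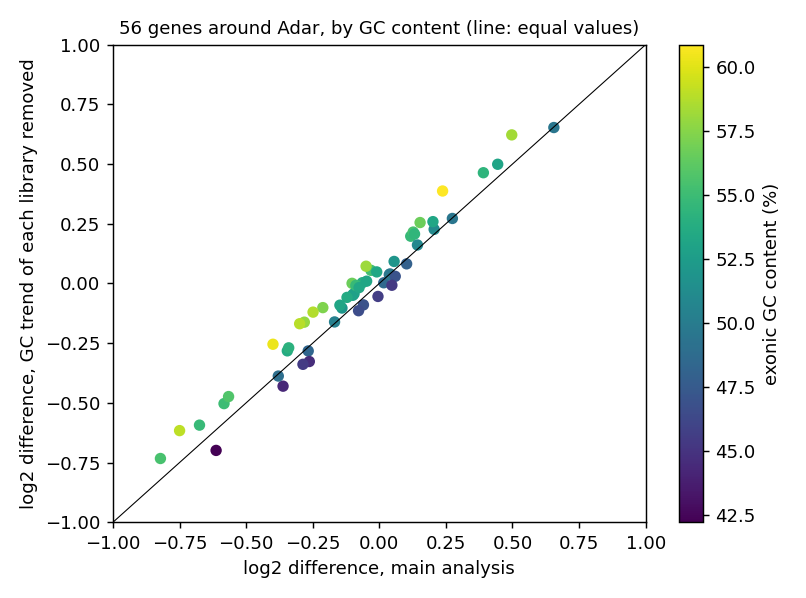
Log2 difference, cKO-labelled minus wild type, of the neighbours of Adar in the main analysis (horizontal axis) and with each library's GC trend removed (vertical axis), coloured by exonic GC content in percent; Npr1 and S100a9, which lie above 1, are not drawn. Genes of high GC content lie above the line of equal values and those of low GC content below it, and the median moves from -0.07 to -0.013.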

How the data were processed

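Poly(A) RNA was sequenced from 4 libraries. Per the labels' protocols the library kit was NEBNext Ultra RNA, an unstranded kit. The submitters' processing notes name HTSeq 0.6.1, HISAT2 2.0.1, cutadapt 1.9.1, bcl2fastq 2.17.1.14 and GRCm38, and the sources used here give no settings for them. The deposited table holds whole read counts per gene and FPKM values per gene made by the authors, and the deposited FPKM lay within 0.005 of values recomputed from counts and exonic length.

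Counts were tested with edgeR 4.0.16 in R 4.3.3 (filterByExpr with minimum count 10 and total 15, TMM, glmQLFit and glmQLFTest) on all 14180 genes passing the filter, with Benjamini-Hochberg adjustment over all of them and a threshold of 0.05. SE is the absolute difference divided by the root of F, and the 95% intervals are built from it. DESeq2 was 1.42.0. The fit was tested on simulated data. GENCODE M21 (GRCm38) gave gene types and GC for 58 of the 60 genes. Named were the genes called, the 4 nearest to Adar on each side, the 3 with the highest FPKM and the S100 genes; Rab13, Hax1, Gon4l, Dap3, Adam15, Hcn3, Crtc2, the genes of the runs and the other genes of the lists were named after their values were seen. The members and lists were chosen with earlier results of these data known. Alternatives were RLE factors, library totals, DESeq2, no filter, GC trend removal, a replicate block, leaving out each library, a minimum of 400 counts, a window of 500 kb and genes without an overlap on the opposite strand.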

Additional observations from a re-analysis of the deposited data

How the results depend on the processing

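RLE factors, library totals, DESeq2 and no filter on low counts left the counts of neighbours called (9 to 12), higher (3 to 4) and lower (6 to 8) within 1.5 times of the main values, while DESeq2 called 14.3% of all genes against 21.7% by edgeR. Without the filter 12 neighbours were called, and 13.1% of the larger set of genes then tested. With the GC trend removed 8 rose and 5 fell, and the median was -0.013, where 18.7% of all genes were called, 61.4% of them higher. Leaving out 1 library each gave 7 to 13 genes called, 2 to 5 higher, 4 to 8 lower, and 7 to 11 of the 12 calls kept, while 15.3% to 18.3% of all genes were called. Restriction to genes of 400 counts left 2 higher (of 44 genes). Among genes whose start, rather than nearest end, lies within 500 kb of Adar, 6 of 29 were called, 2 higher and 4 lower. Without genes that overlap another on the opposite strand 7 of 34 were called, 4 of them lower, and the median was -0.0051; fewer genes enter these 3 counts. Signs turned for genes near zero. With the GC trend removed the differences of Pygo2, Chrnb2 and S100a1 were 0.072, 0.048 and 0.0094. With 1 library left out at a time, Pbxip1 ranged from -0.00092 to 0.29, Chrnb2 from -0.16 to 0.15 and S100a1 from -0.28 to 0.15. The cause was not tested. With the replicate number as a block 13 were called, 4 higher and 9 lower, with a median of -0.07, and all 12 calls were kept with Hax1 gained. That fit called 24.7% of all genes. Same-numbered libraries showed no shared deviation from their group means (correlation -0.029 across genes). The labels do not say whether they were paired, and this value cannot decide it. Adar rose in every fit, by 0.58 to 0.71. Genes under 400 counts limit precision: none of the 16 had an interval within 0.5 log2 units of zero.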

Other observations

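Several genes of the window that are known from other tissues stayed below 40 counts and were left out of all counts above. The ephrin ligand genes Efna1, Efna3 and Efna4 had 10, 0 and 13 counts over the 4 libraries. S100a4 had 36 counts, 4 and 12 in wild type against 9 and 11. Creb3l4, a membrane-bound transcription factor gene of the CREB family, had wild-type counts of 5 and 1 against 19 and 1, so that 1 library held most of them. No count at all was found for 28 of the 126 genes of the window.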
